A study of Mus musculus with 3 samples.

Results

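The amino acid transporter genes described here are the 62 genes of the count files, of 32285 in all, whose symbol places them in 7 solute carrier families: SLC1 (7 genes), SLC3 (2), SLC6 (21), SLC7 (14), SLC36 (4), SLC38 (11) and SLC43 (3). They were chosen by symbol alone, with Slc7a13 and antisense transcripts left out. Transcripts were counted by droplet single-cell RNA sequencing of whole kidney from male mice aged 28 weeks, in 3 groups with 1 library each. The db/m group (lean carriers of 1 mutant copy of the leptin receptor gene) and the db/db control group (obese and diabetic mice with 2 mutant copies) were fed a control diet free of fructose. The db/db fructose group was fed a diet of 60% fructose. Each diet began at 8 weeks of age and lasted 20 weeks. How many mice entered a library is not given in the sources used here. Enzyme digestion of the perfused kidneys was followed by lysis of red cells and removal of debris and dead cells, so the recovered cells need not mirror the tissue.

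Nearly all amino acids filtered at the glomerulus are taken back by the proximal tubule. Sodium-coupled and proton-coupled carriers and exchangers of the brush border, the urine-facing membrane, bring them into the cell, and uniporters and exchangers of the basolateral membrane release them to the blood. Several of these carriers work as pairs of a heavy chain from the SLC3 family and a light chain from the SLC7 family. Other members move neurotransmitters, taurine, betaine or creatine, and some serve the supply of the cell itself in every tissue.

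The library of db/m held 13524 barcodes, that of db/db control 26513 and that of db/db fructose 20383, with 31660184, 52704335 and 42028885 unique molecular identifiers (UMIs, 1 per captured transcript). After filtering, 9940, 16226 and 16049 cells remained, with medians of 1679, 1628 and 1531 UMIs per cell and median mitochondrial shares of 15.1%, 24.6% and 10.6%. Between 379 and 780 barcode sequences were shared by any 2 libraries and 13 by all 3. Cells were clustered without the transporter genes, and each class is named by its resemblance to fixed markers. The proximal tubule-like class held 5812, 6333 and 8092 cells, and 255, 3050 and 1119 cells (2.57%, 18.8% and 6.97%) stayed unnamed. The unnamed cells of db/db control, the library that both comparisons share, had a median mitochondrial share of 38.3%, and the part of their loss in the results was not tested. Levels are summed UMIs of a class per 1000000 UMIs of that class and library (CPM), and every set of 3 values runs from db/m through the db/db control to the db/db fructose library. Because each group is 1 library, differences lack any replicate check, nothing was tested, and each 95% interval covers counting error only. Levels of different genes are not compared, since a UMI tags a transcript end and detection differs between genes.

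The 62 genes gave 42827, 63342 and 80677 UMIs in the kept cells, which is 0.188%, 0.196% and 0.251% of all UMIs. Of these genes, 45 had at least 20 UMIs over the 3 libraries, 11 had fewer but not 0, and 6 had 0. Those without a UMI included Slc6a11, which carries the transmitter GABA in brain, Slc7a10, Slc6a21, Slc36a2 and Slc36a3. The 11 genes with fewer than 20 UMIs were Slc43a1, Slc7a14, Slc1a7, Slc6a16, Slc6a5, Slc6a2, Slc38a8, Slc1a6, Slc7a15, Slc6a3 and Slc38a5, and they are not followed further. A further 21 genes with 20 UMIs or more stayed below 50 CPM in these classes: Slc1a2, Slc1a3, Slc1a4, Slc6a4, Slc6a7, Slc6a9, Slc6a12, Slc6a14, Slc6a20a, Slc7a1, Slc7a2, Slc7a3, Slc7a4, Slc7a5, Slc7a6, Slc7a11, Slc7a12, Slc38a1, Slc38a3, Slc38a4 and Slc38a7. At least 50 CPM in a class of 100 or more cells per library was reached by 24 genes, and 18 of these had the same highest class in every library. For 12 of the 18 that class was proximal tubule-like cells. These 12 are listed by role below, and the colour map by class and library shows them as its upper block.

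**Figure D1:**
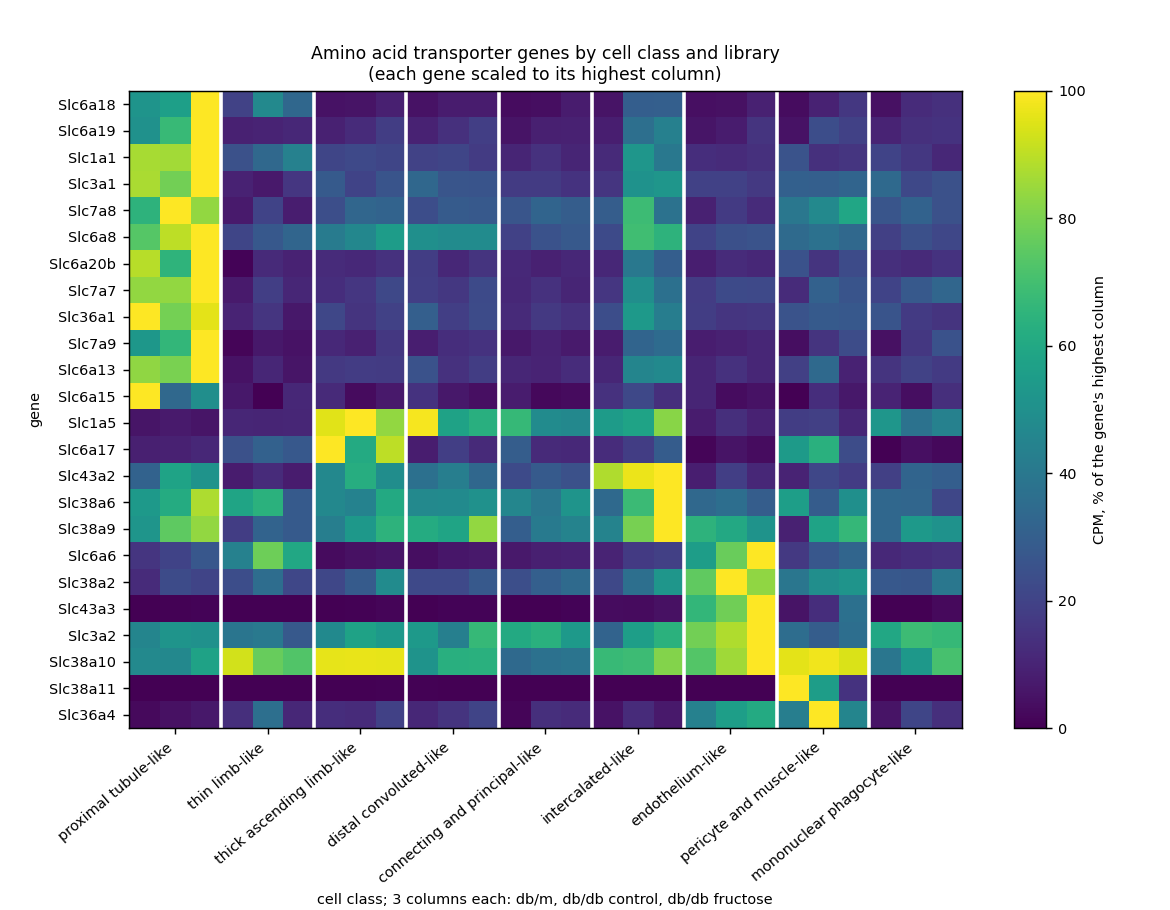
Colour map of the 24 genes with at least 50 CPM in a compared class (rows) against 9 cell classes, with 3 columns per class, 1 for each library in the order above; colour is the CPM as a percentage of the gene's own highest column. The upper 12 rows are brightest in proximal tubule-like cells, whereas Slc6a6, Slc38a2, Slc43a3 and Slc3a2 are brightest in endothelium-like cells and Slc43a2 in intercalated-like cells.

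The 2 upstream windows shown here belong to Slc3a1, highest in the proximal tubule-like class in every library, and to Slc7a11, nearly absent from that class and too scarce for the colour map. Each window holds the 250 bases before a RefSeq transcript start in the GRCm38.p6 build, 5′ to 3′ on the strand of the gene. That of Slc3a1 lies at chr17:85028097-85028346 on the plus strand and that of Slc7a11 at chr3:50443614-50443863 on the minus strand. Capitals mark every match, on either strand, to 4 motifs: the HNF1 motif GTTAAT, the HNF4 motif CAAAGTCCA, the androgen or glucocorticoid receptor motif AGAACA and the amino acid response element TTGCATCA.

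Slc3a1: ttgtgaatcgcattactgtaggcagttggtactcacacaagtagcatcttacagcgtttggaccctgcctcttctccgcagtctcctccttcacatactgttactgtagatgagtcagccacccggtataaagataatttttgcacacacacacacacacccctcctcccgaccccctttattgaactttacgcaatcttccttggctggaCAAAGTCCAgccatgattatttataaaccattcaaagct
Slc7a11: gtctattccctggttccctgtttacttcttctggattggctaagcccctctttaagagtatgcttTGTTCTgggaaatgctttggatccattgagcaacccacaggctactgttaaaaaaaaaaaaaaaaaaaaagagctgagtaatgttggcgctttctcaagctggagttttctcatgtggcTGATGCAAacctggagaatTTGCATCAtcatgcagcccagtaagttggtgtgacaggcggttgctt

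The Slc3a1 window has 1 HNF4 motif, 39 bases before the start. In the Slc7a11 window the amino acid response element occurs at 66 bases before the start as TGATGCAA and at 47 bases as TTGCATCA, and a receptor motif stands at 185 bases. A promoter was found in the RefSeq table for 45 of the 62 genes. The HNF1 motif was in the windows of 6 of the 45 (Slc6a13, Slc6a16, Slc6a20a, Slc36a1, Slc7a15 and Slc7a7), the HNF4 motif in 1, the receptor motif in 8 and the amino acid response element in 2 (Slc7a11 and Slc7a7). Some genes have several windows, and of the 66 windows of these genes 6, 1, 9 and 2 held the motifs in that order. Over all 32851 windows of the table the motifs were in 6.43%, 0.384%, 16.1% and 0.791%. A match is a run of letters and no evidence of binding.

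Brush border carriers of neutral amino acids were led by a pair of neighbours on chromosome 13. Slc6a19 encodes B0AT1, the main sodium-coupled carrier of neutral amino acids, which is defective in Hartnup disorder (ENSMUSG00000021565, 73679745 to 73704865 in mm10). Slc6a18 encodes B0AT3, a carrier of glycine and other neutral amino acids (ENSMUSG00000021612, 73661752 to 73678023). Both lie on the minus strand with 1.72 kb between them. In proximal tubule-like cells Slc6a19 stood at 153, 204 and 303 CPM and Slc6a18 at 323, 352 and 622 CPM. Both were therefore highest in the fructose library, and for Slc6a18 the db/m and db/db control libraries lay close together. Slc6a20b, of the imino acid carriers that take up proline, stood at 164, 119 and 183 CPM. Its related neighbour Slc6a20a, 2.21 kb away, stood at 11.5, 10.7 and 14.5 CPM. Reads of the 2 copies may have been split or lost, so both values are uncertain.

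Among the remaining brush border carriers, Slc1a1, the glutamate and aspartate transporter, stood at 224, 222 and 258 CPM. Slc36a1, a proton-coupled carrier of small neutral amino acids, stood at 141, 112 and 135 CPM. These levels lay within 1.5-fold of each other across the libraries. The heteromer that takes up cystine and dibasic amino acids, and whose loss causes cystinuria, is formed by Slc3a1 (rBAT, the heavy chain) and Slc7a9 (b0,+AT, the light chain). The heavy chain gene stood at 219, 197 and 251 CPM and the light chain gene at 70.7, 88.6 and 134 CPM. The light chain gene was thus lowest in db/m and highest in db/db fructose, while the heavy chain gene was lowest in db/db control. Their log2 ratios of db/db control over db/m were -0.15 (95% interval -0.23 to -0.06) for Slc3a1 and 0.33 (0.19 to 0.47) for Slc7a9.

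Carriers of the basolateral side included Slc7a8 (LAT2, an exchanger of neutral amino acids), Slc7a7 (y+LAT1, which exports lysine and arginine and is defective in lysinuric protein intolerance) and Slc43a2 (LAT4, a uniporter of branched-chain amino acids, phenylalanine and methionine). In proximal tubule-like cells Slc7a8 stood at 142, 220 and 184 CPM. Slc43a2 stood at 112, 207 and 184 CPM, and both were lowest in db/m. Slc7a7 stood at 139, 139 and 166 CPM. Slc3a2, the 4F2 heavy chain that Slc7a7 and Slc7a8 need, stood at 123, 139 and 136 CPM here and was found in every compared class, with its highest levels in endothelium-like cells (213, 238 and 270 CPM). Of the other proximal genes, Slc6a8, the creatine transporter, stood at 141, 173 and 192 CPM, and Slc6a13, a carrier of GABA and taurine, at 67.6, 64.8 and 81.1 CPM. The lysosomal arginine sensor Slc38a9 (28.6, 41.15 and 45.8 CPM), Slc38a6 (29.5, 33.6 and 48.0 CPM) and Slc38a10 (40.1, 39.8 and 49.1 CPM) were present here and in most other compared classes.

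In the comparison of db/db control with db/m, which asks how the diabetic genotype differs on the same diet, the ratios farthest from 0 among the measured transporter genes of proximal tubule-like cells were those of Slc38a3, Slc1a4 and Slc6a15. Slc38a3, which encodes SNAT3, the carrier that brings glutamine in from the blood side for ammonia production, was 9.20-fold higher. Slc1a4, which encodes ASCT1, an exchanger of alanine, serine and cysteine, was 8.58-fold lower, and Slc6a15, which encodes B0AT2, a carrier of proline and branched-chain amino acids, was 2.97-fold lower. Of 25 genes measured (at least 10 CPM in the library where they were higher), 5 were higher by 1.5-fold or more and 2 lower. Over all 8637 genes measured in this comparison 7.58% were higher and 12.1% lower by the same rule. The median log2 ratio was 0.18 over the transporter genes and 0.00 over all genes.

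Slc38a3 (ENSMUSG00000010064, chromosome 9, 107650634 to 107669530) gave 43, 399 and 476 UMIs, or 4.003, 36.8 and 36.8 CPM. The 2 db/db libraries were level and the db/m library stood apart below them, with a log2 ratio of db/db control over db/m of 3.20 (2.74 to 3.69). In lymphocyte-like cells, taken as a class that should lack it, 0 UMIs of Slc38a3 were found in each library, which at 3 counts allows up to 17.65, 22.1 and 18.25 CPM and so does not bear on the lower db/m level. Under the 11 other settings the ratio stayed between 3.05 and 6.28. Slc1a4 (ENSMUSG00000020142, chromosome 11, 20302180 to 20332713) gave 170, 20 and 46 UMIs, or 15.8, 1.845 and 3.55 CPM. Its ratio was -3.10 (-3.85 to -2.43), and both db/db libraries were far below db/m. Slc6a15 (ENSMUSG00000019894, chromosome 10, 103367783 to 103419377) stood at 60.3, 20.3 and 29.7 CPM, again highest in db/m, with a ratio of -1.57 (-1.80 to -1.35). The ratios of Slc1a4 and Slc6a15 kept their direction and stayed past 1.5-fold under the same 11 settings.

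The other 4 higher genes differed less. Slc38a2, the SNAT2 carrier of small neutral amino acids, which cells raise when amino acids are scarce, stood at 43.7, 81.3 and 72.8 CPM (0.90, 0.73 to 1.06). Slc43a2 had a ratio of 0.88 (0.78 to 0.98). Slc7a2, the CAT2 carrier of arginine and lysine, stood at 7.075, 12.7 and 17.1 CPM (0.85, 0.43 to 1.27). Slc7a8 had a ratio of 0.63 (0.54 to 0.73). For all 5 higher genes, both db/db libraries were above db/m. The median mitochondrial share of proximal tubule-like cells was 14.6%, 20.6% and 9.24%, and the clusters that hold most of these cells differ between the libraries. The part of either in the ratios was not tested.

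**Figure D2:**
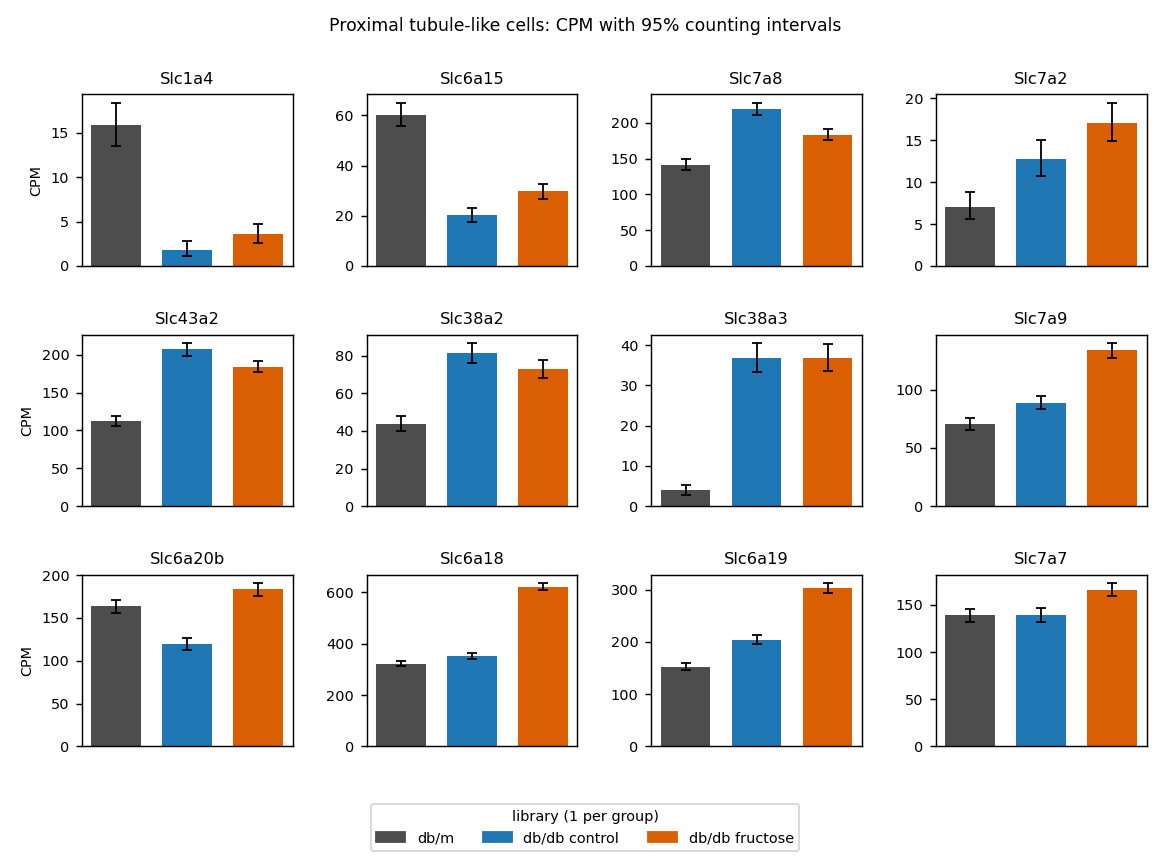
Bars give the CPM of 12 genes in proximal tubule-like cells of each library, 1 library per group, and error bars are 95% counting intervals; each panel has its own axis from 0. Slc38a3 is at 4.003 CPM in db/m and 36.8 in both db/db libraries, Slc1a4 and Slc6a15 are highest in db/m, and Slc6a18 is highest in db/db fructose.

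The comparison of db/db fructose with db/db control asks what the sugar adds to the diabetic state. Higher in the fructose library were 3 genes: Slc6a18 (352 to 622 CPM, log2 ratio 0.82, 0.77 to 0.88), Slc6a20b (119 to 183 CPM, 0.62, 0.52 to 0.72) and Slc7a9 (88.6 to 134 CPM, 0.59, 0.48 to 0.71). Slc6a19 was just inside the limit with 0.57 (0.49 to 0.65). Of 24 genes measured, 3 were higher and 0 lower, beside 11.5% higher and 1.47% lower of the 8918 genes measured. The median log2 ratio was 0.29 over the transporter genes and 0.25 over all genes. With scaling by size factors, which takes the typical gene as level, all ratios shift down by 0.24. Then 0 of the 24 were higher, and Slc6a18 had 0.58, Slc6a20b 0.38 and Slc7a9 0.35, while Slc1a5 (ASCT2, the main glutamine and alanine exchanger of growing cells) had -0.59, which made it the 1 lower gene. The proximal level of Slc1a5 lay far below that in thick ascending limb-like cells (168 and 141 CPM in the db/db libraries). The part of free RNA from other classes in its proximal value was not tested. Slc38a3, with -0.00, and Slc38a2, with -0.16, differed little between the db/db libraries on the CPM scale. The ratio of Slc6a18 stayed past 1.5-fold under 9 of 11 other settings, that of Slc7a9 under 6 and that of Slc6a20b under 5. This comparison and the preceding one share the db/db control library.

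**Figure D3:**
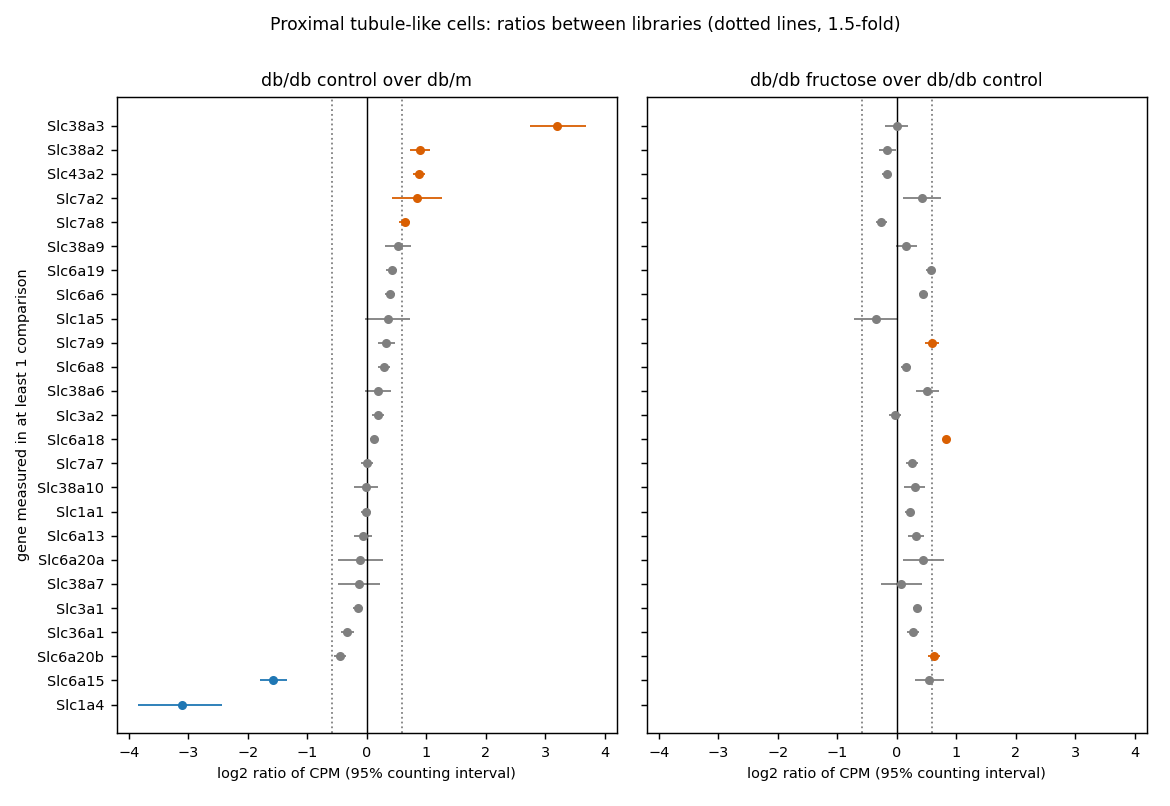
Log2 ratios of CPM in proximal tubule-like cells for each gene measured in at least 1 comparison, with db/db control over db/m on the left and db/db fructose over db/db control on the right; points are ratios, bars 95% counting intervals, dotted lines 1.5-fold, orange higher and blue lower. Slc38a3 (3.20) and Slc1a4 (-3.10) are the outermost points on the left, and on the right 3 genes lie past the dotted line.

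The proximal tubule runs from an early convoluted part to a late straight part, and carriers divide along it. Each proximal tubule-like cell was placed by its share of early marker UMIs (Slc5a2, Slc5a12, Slc2a2, Slc4a4, Gatm) among early and late marker UMIs: at least 75% early, at most 25% late, the rest intermediate. This gave 2023, 4634 and 5584 early cells, 2407, 1082 and 1948 intermediate cells, and 957, 69 and 175 late cells. The late markers themselves summed to 2401, 545 and 955 CPM and the early ones to 3183, 3991 and 5669 CPM. So the placing moves with the groups, the late cells of db/db are few, and the shares of cells are not read as a result. Within 0.1 of a limit lay 2401, 1458 and 1983 cells.

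Slc6a18 and Slc6a19, the neighbours on chromosome 13, ran in opposite directions along the tubule in every library. Slc6a18 stood at 83.4, 227 and 320 CPM in early cells, at 372, 784 and 1333 CPM in intermediate cells and at 665, 821 and 1732 CPM in late cells. Its log2 ratio of early over late was -2.99 (-3.18 to -2.81), -1.86 (-2.15 to -1.55) and -2.44 (-2.58 to -2.29). Slc6a19 stood at 248, 234 and 377 CPM in early, 131, 110 and 136 CPM in intermediate and 46.2, 32.8 and 103 CPM in late cells. Its ratios were 2.42 (2.11 to 2.75), 2.83 (1.47 to 4.71, on 4 late UMIs) and 1.88 (1.33 to 2.48). Whole clusters of each library were also assigned as early or late, by the early marker share of its proximal cells (57.0%, 88.0% and 85.6%). A late cluster of db/m thus need not match one of db/db. The ratios were then -2.25, -2.51 and -3.09 for Slc6a18 and 0.93, 0.98 and 1.01 for Slc6a19.

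The basolateral genes Slc7a8 and Slc7a7 were early as well. Slc7a8 had early over late ratios of 2.98, 2.39 and 1.73, and Slc7a7 of 2.17, 1.72 and 1.47. Slc43a2 was milder, with 0.75, 0.89 and 0.82. On the late side stood Slc6a13, with -0.67, -1.14 and -1.06, and Slc38a3, with -5.18 in db/m (1 early UMI, -10.55 to -2.55), -2.16 and -1.84. The arginine carrier Slc7a2 had 4.99 (2.45 to 10.32) in db/m, on 1 late UMI. With 0 late UMIs in both db/db libraries its ratio had a lower limit of 0.71 in db/db fructose and -0.94 in db/db control, so the late cells of db/db control were too few to place it.

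Placing changed what the comparison between libraries showed for some genes. Slc7a8, higher in db/db control over all proximal tubule-like cells, was not higher within the early cells, where it stood at 279, 259 and 227 CPM (log2 ratio of db/db control over db/m -0.11, -0.22 to 0.00). Slc7a7, level over all cells, stood at 245, 162 and 210 CPM in early cells (-0.60, -0.72 to -0.47). Slc7a2 stood at 15.6, 16.0 and 23.1 CPM there (0.04, -0.43 to 0.52), and Slc38a2 at 56.5, 79.1 and 79.0 CPM (0.49), within 1.5-fold. Slc6a18, within 1.5-fold over all cells, was higher in db/db control among early cells (1.44, 1.26 to 1.62) and intermediate cells (1.08, 0.98 to 1.18). A second placing, added after these values had been seen, used early markers alone: cells with at least 2 UMIs of Slc5a2, Slc5a12, Slc2a2 and Gatm per 1000 UMIs were called rich. This gave 2328, 3095 and 4826 rich and 3484, 3238 and 3266 poor cells, with 928, 1271 and 938 within 0.5 of the limit. Over all proximal tubule-like cells Slc5a2 stood at 760, 1072 and 1393 CPM and Slc5a12 at 406, 403 and 1118 CPM. Slc2a2 stood at 117, 196 and 211 CPM and Gatm at 643, 622 and 619 CPM. So this placing moves with the groups as well. In rich cells Slc6a18 stood at 111, 138 and 244 CPM and in the other, poor cells at 454, 562 and 1194 CPM. The ratios of db/db control over db/m were then only 0.32 (0.14 to 0.49) and 0.31 (0.24 to 0.38), so for Slc6a18 the larger difference was seen with the first placing alone. Slc7a8 stood at 253, 299 and 244 CPM in rich cells (0.24, 0.12 to 0.35) but at 72.6, 142 and 93.0 CPM in poor cells (0.97, 0.80 to 1.13). Slc7a7 stood at 235, 189 and 231 CPM in rich cells (-0.31, -0.44 to -0.18) and at 79.9, 90.7 and 68.4 CPM in poor cells (0.18, 0.00 to 0.36). Slc7a2 had 0.54 (0.07 to 1.02) in rich cells and 0.89 (-0.04 to 1.87) in poor cells. So the ratios of Slc7a8 and Slc7a7 were higher among poor cells than among early or rich ones, with intervals that do not overlap. For Slc7a2 the intervals overlap, so its ratios could not be told apart.

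Slc38a3, Slc43a2, Slc1a4 and Slc6a15 kept their direction in early cells, in rich cells and in poor cells. In early cells Slc38a3 gave 1, 177 and 181 UMIs (6.28, 3.78 to 11.59), and in poor cells it stood at 5.88, 61.8 and 65.5 CPM. Slc43a2 stood at 141, 228 and 209 CPM in early cells. Slc6a15 stood at 55.3, 23.6 and 35.2 CPM in early cells and at 79.6, 8.21 and 22.8 CPM in late cells, where db/db control had 1 UMI and db/db fructose 6. Its early over late ratio was -0.53 (-0.83 to -0.22) in db/m and 1.52 (-0.97 to 6.83) and 0.63 (-0.51 to 2.08) in the db/db libraries. By clusters it was -0.58, 1.61 and 1.12. The sign thus differed between db/m and both db/db libraries, but both db/db intervals by placing of cells include 0. The difference was not tested.

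**Figure D4:**
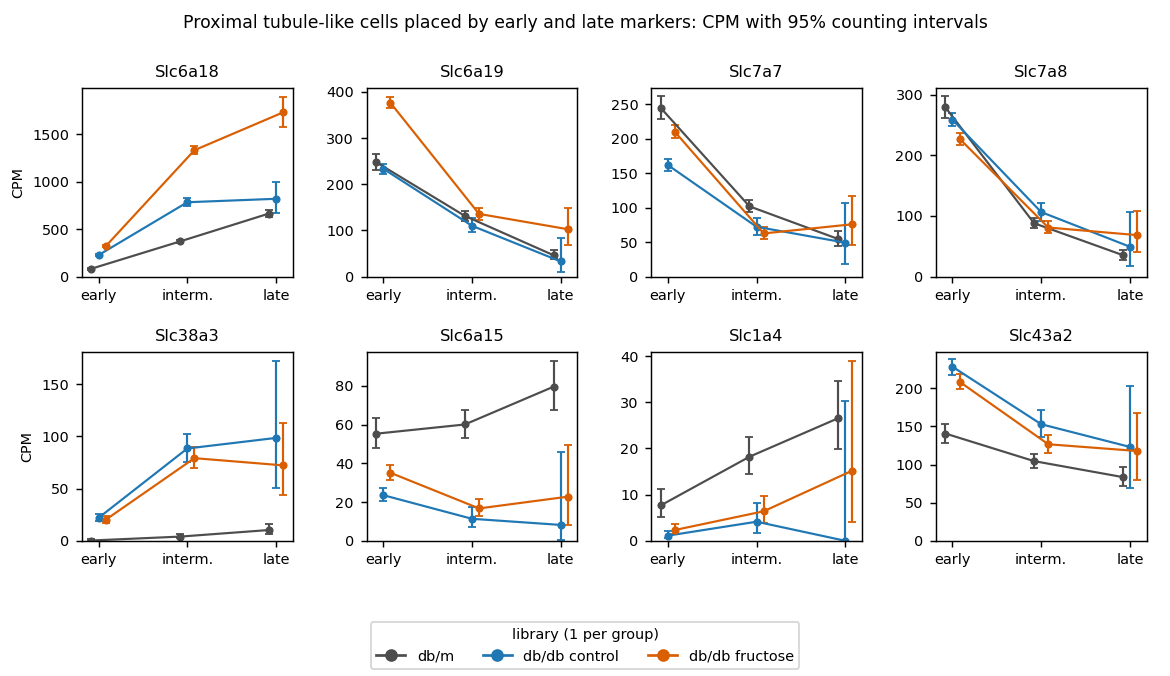
CPM (vertical axes, each from 0) of 8 genes in early, intermediate and late-placed proximal tubule-like cells, with 1 line per library and 95% counting intervals. Slc6a18 climbs from early to late in all 3 libraries while Slc6a19, Slc7a7 and Slc7a8 decline from early to intermediate cells, and the db/m line of Slc38a3 lies below both db/db lines throughout.

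Genes that work with these carriers were followed in proximal tubule-like cells through 5 lists. Of the partners and peptide uptake genes, 15 were measured in db/db control over db/m, with 1 higher and 8 lower and a median log2 ratio of -0.67. The shares over all genes against which each of these lists is set are again 7.58% higher and 12.1% lower for db/db control over db/m, and 11.5% and 1.47% with fructose. Cltrn, which encodes collectrin, the protein that brings B0AT1 and B0AT3 to the brush border, stood at 625, 310 and 333 CPM (-1.01, -1.07 to -0.95). The brush border peptidase Mep1a stood at 266, 92.0 and 106 CPM, and Ggt1, which splits glutathione, at 489, 288 and 349 CPM. The cytosolic peptidases Cndp2 (543, 49.0 and 66.0 CPM) and Lap3 (193, 56.3 and 69.3 CPM) had ratios of -3.47 and -1.78, the 2 lowest among the measured genes of the list. The other lower genes were Anpep, Treh, which splits the sugar trehalose, and Pepd. In the fructose comparison 0 of 15 were higher or lower.

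The ammonia-forming pathway that uses the glutamine brought in by Slc38a3 was measured with 11 genes. In db/db control over db/m 1 was higher and 0 lower. In the fructose comparison 4 were higher and 0 lower, among them Pck1 (0.66), which draws off the carbon skeleton, Gpt2 (0.69), a transaminase, and Glul (0.84), which makes glutamine and so runs against the others. Their log2 ratios with size factors were lower by 0.24. Pck1 stood at 3664, 4541 and 7152 CPM and Glul at 163, 144 and 258 CPM.

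The amino acid response list had 9 genes measured in each comparison. In db/db control over db/m 1 was higher, Phgdh of serine synthesis (5.87 to 11.7 CPM), and 0 lower, and in the fructose comparison 0 were higher or lower. Of 5 osmolyte genes 2 were lower in db/db control, Akr1b3, the aldose reductase that makes sorbitol (-1.28), and Hspa4l, a heat shock protein gene (-0.75), and 0 in the fructose comparison. Amino acid breakdown had 19 genes measured, with 4 higher and 6 lower in db/db control. The higher genes were Prodh2 (101 to 256 CPM) of hydroxyproline breakdown, Gldc (180 to 421 CPM) of glycine cleavage, Hpd (24.0 to 60.1 CPM) of tyrosine breakdown and Bcat2 (21.4 to 34.2 CPM) of branched-chain transamination. The lower genes included Fah, Ivd, Hibadh, Dbt and Aass. In the fructose comparison 0 of the 19 were higher or lower.

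Outside the proximal tubule, free RNA released by broken cells adds proximal transcripts to every class. Markers of the proximal tubule stood in lymphocyte-like cells at 46.7%, 52.3% and 63.5% of their level over the whole library. A gene was therefore counted as measured in another class only at 2 times or more of the level that free RNA alone would give there. No such limit was set for proximal tubule-like cells, where free RNA of other classes can add to genes highest elsewhere, such as Slc38a2 and Slc1a5. With free RNA subtracted, the proximal ratio of Slc38a2 for db/db control over db/m stayed past 1.5-fold. Slc6a18 in lymphocyte-like cells, at 23.5, 95.8 and 103 CPM, lay at 0.295, 1.13 and 0.549 times that level.

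Among the compared classes, endothelium-like cells had the highest level of 4 genes in every library: Slc6a6, Slc43a3, Slc38a2 and Slc3a2, the last given above. Slc6a6, the taurine transporter TauT (ENSMUSG00000030096, chromosome 6, 91684053 to 91759066), stood there at 640, 888 and 1148 CPM, between 11.7 and 13.6 times the free RNA level. Its log2 ratio was 0.47 (0.36 to 0.59) when db/db control was set over db/m and 0.37 (0.29 to 0.45) for fructose over control, both within 1.5-fold. In proximal tubule-like cells the same gene stood at 175, 229 and 312 CPM, in the same order of libraries. Slc43a3, a carrier of purine bases (ENSMUSG00000027074, chromosome 2, 84936579 to 84958509), stood at 199, 236 and 301 CPM in endothelium-like cells, which held 1657 of its 1979 UMIs in kept cells, or 83.7%. Slc38a2 stood at 266, 353 and 295 CPM. Slc7a5, the LAT1 carrier of large neutral amino acids, was scarce there, at 10.8, 7.02 and 21.9 CPM, and was the 1 gene higher with fructose (1.64, 0.84 to 2.51).

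Thin limb-like cells of the inner kidney, 78, 51 and 87 in number and too few to compare, held genes of osmolyte and transmitter transport. Slc6a6 stood there at 503, 893 and 687 CPM. Slc6a12, the betaine transporter BGT1 that cells of the medulla use against salt, stood at 39.8, 65.7 and 95.6 CPM, with 78 of its 245 UMIs in these cells. The glial glutamate transporter genes Slc1a2 (59.7, 56.9 and 33.4 CPM) and Slc1a3 (31.8, 39.4 and 48.9 CPM) and the CAT1 arginine carrier gene Slc7a1 (49.7, 65.7 and 64.5 CPM) were present too.

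In the distal nephron Slc1a5 stood well above its own proximal level. It stood in thick ascending limb-like cells at 161, 168 and 141 CPM, in distal convoluted tubule-like cells at 166, 96.8 and 106 CPM and in connecting tubule and principal-like cells at 113, 81.1 and 78.4 CPM. In proximal tubule-like cells it stood at 9.78, 12.5 and 9.81 CPM. Slc43a2, early in the proximal tubule, stood higher still in intercalated-like cells, which secrete acid or bicarbonate, at 314, 347 and 358 CPM. Of the 2 clusters pooled there, 1 carried proximal markers at 46.9%, 137% and 94.8% of the library level. In the other, with 22.0%, 32.9% and 41.7%, Slc43a2 stood at 335, 414 and 463 CPM.

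**Figure D5:**
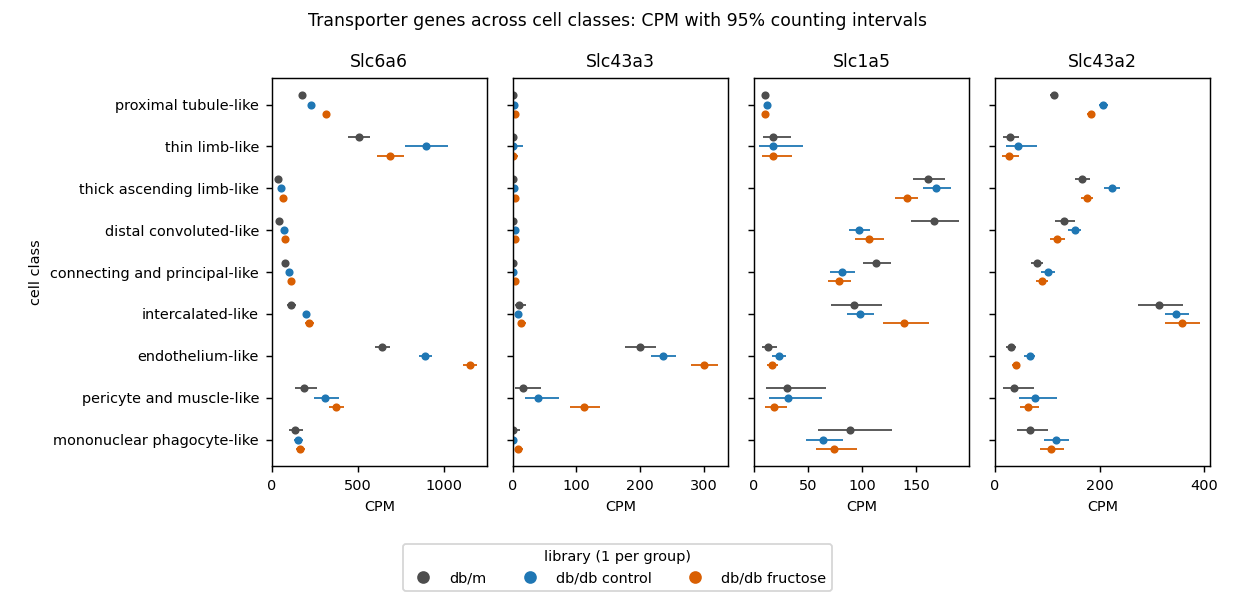
CPM (horizontal axes, from 0) of Slc6a6, Slc43a3, Slc1a5 and Slc43a2 in 9 cell classes, with 1 point per library and 95% counting intervals. Slc6a6 is highest in endothelium-like and thin limb-like cells, Slc43a3 in endothelium-like cells, Slc1a5 in distal tubule classes and Slc43a2 in intercalated-like cells.

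Differences between libraries in these classes rest on fewer UMIs. Over the 7 classes together 15 calls were higher and 11 lower in db/db control, and 13 higher and 10 lower with fructose. A gene counts here once in each class where it was called. The shares over all genes ran, by class, from 1.61% to 19.0% higher and from 3.24% to 42.9% lower in db/db control. With fructose they ran from 8.29% to 33.3% higher and from 0.825% to 13.3% lower. Genes named here had at least 20 UMIs in both libraries together, whereas the shares over all genes set beside them carry no such minimum. In distal convoluted tubule-like cells 8 genes were measured for db/db control over db/m, with Slc1a5 lower (-0.78, -1.02 to -0.54) and Slc6a17, a vesicle carrier known from neurons, higher (1.23, -0.01 to 2.76), beside 2.85% higher and 13.3% lower of all genes. With fructose 10 were measured, and Slc3a2 (0.63, 0.44 to 0.83), Slc7a1 (0.76, -0.06 to 1.57) and Slc7a6 (0.81, -0.01 to 1.64) were higher and Slc38a7 (-1.03, -1.97 to -0.18) and Slc6a17 (-0.62, -1.55 to 0.25) lower, beside 12.7% and 1.16%. Of 8 other settings, Slc6a17 stayed past 1.5-fold in 2 and ranged from -2.29 to 0.26, and Slc3a2 stayed past it in 4. Slc7a1 and Slc7a6 carry cationic amino acids, and Slc38a7 is a lysosomal glutamine carrier.

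In thick ascending limb-like cells 1 of 10 genes was higher and 1 lower in db/db control, beside 7.19% and 3.24% of all genes. Slc1a3, the glutamate transporter GLAST, stood at 7.43, 16.3 and 15.4 CPM (1.13, 0.40 to 1.92), and Slc6a17 at 56.2, 34.3 and 50.7 CPM (-0.71, -1.05 to -0.37). With fructose 2 of 12 were higher, beside 8.29%, and 0 lower, beside 1.08%: Slc38a2, at 75.3, 101 and 171 CPM (0.75, 0.58 to 0.93), and Slc36a4 (0.66, -0.01 to 1.35), a proton-linked carrier of tryptophan and proline. Connecting tubule and principal-like cells showed the same pair in db/db control, with Slc1a3 higher (1.35, 0.32 to 2.47) and Slc6a17 lower (-1.32, -2.23 to -0.47) of 9 measured, beside 4.79% and 15.3%. With fructose Slc1a3 was the 1 lower of 10 (-0.65, -1.57 to 0.24), beside 1.85%, and 0 were higher, beside 20.4%. In endothelium-like cells 11 genes were measured in each comparison. Slc7a1 was higher (0.84, -0.12 to 1.90) and Slc7a5 lower (-0.62, -1.73 to 0.51) in db/db control, beside 4.38% and 11.3%, and Slc7a5 alone was higher with fructose, beside 10.7% higher and 0.825% lower.

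The remaining classes held few cells or mixed clusters. Of 4 genes measured in intercalated-like cells 0 were higher and 2 lower in db/db control, beside 1.61% and 42.9% of all genes, and neither of the lower genes had 20 UMIs. Of 7 measured with fructose, Slc7a5 (1.33) and Slc7a1 (0.73) were higher and 0 lower, beside 33.3% and 1.47%. Of 11 genes measured in mononuclear phagocyte-like cells 4 were higher and 2 lower in db/db control, beside 8.67% and 34.2%, none with 20 UMIs. Of 11 measured with fructose 3 were higher and 1 lower, beside 29.2% and 4.49%: Slc7a11 (0.71), Slc6a12 (0.73) and Slc38a7 (0.67) were the higher ones, each with an interval that includes 0. In pericyte, mesangial and smooth muscle-like cells 7 of 14 genes measured were higher and 3 lower in db/db control, beside 19.0% and 30.6%. With 20 UMIs these were Slc36a4 (1.22) and Slc6a6 (0.715), higher, and Slc38a11 (-0.85), lower. With fructose 2 of 14 were higher and 6 lower, beside 30.6% and 13.3%. With 20 UMIs these were Slc43a3 (1.49) and Slc7a1 (1.11), higher, and Slc38a11 (-1.94) and Slc36a4 (-1.13), lower. This class pools 2 clusters, and 1 of them had 82, 94 and 398 cells. By its markers that cluster scored 2.322 for this class and 1.788 for endothelium, the next best. Slc38a11 belongs to the other cluster, of 22, 25 and 24 cells, which held 21, 15 and 11 of its UMIs, at 328, 246 and 129 CPM. With each library clustered on its own, the fructose ratio was 0.21 for Slc43a3 and -0.95 for Slc7a1. That of Slc6a6 in db/db control fell as low as 0.17 under other settings. Both ratios of Slc36a4 stayed past 1.5-fold in all 8. The part of endothelial cells in these ratios was not tested.

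Slc7a11 (ENSMUSG00000027737, chromosome 3, 49892526 to 50443614), whose window with its pair of amino acid response elements is printed near the opening, encodes xCT, the exchanger that brings in cystine for glutathione. Of its 95 UMIs in kept cells, 54 (56.8%) lay in the 70 neutrophil-like cells and 28 (29.5%) in mononuclear phagocyte-like cells. Only 3 lay in the 20237 proximal tubule-like cells. The neutrophil-like cells numbered 4, 24 and 42 and gave 3, 17 and 34 UMIs, or 564, 383 and 549 CPM, with intervals of 116 to 1649, 223 to 612 and 380 to 768 CPM. The level was thus not distinguishable between libraries at this depth. Slc38a1, the SNAT1 glutamine carrier, was also a gene of immune cells, at 64.7, 44.2 and 103 CPM in lymphocyte-like cells and 45.9, 40.8 and 38.3 CPM in mononuclear phagocyte-like cells, which together held 118 of its 202 UMIs.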

How the data were processed

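Gene by cell matrices of raw UMI counts, 1 per library, were deposited by the authors. They were made with Cell Ranger 6.0.0 on mm10, per the submitters' processing notes. A barcode was kept if it had 200 genes or more and no more than 50% mitochondrial UMIs. Scrublet's automatic limit marked 0% as doublets, so barcodes were instead removed from the top of its score, at 0.8% per 1000 barcodes (10.8%, 21.2% and 16.3%). The libraries were pooled and clustered with scanpy 1.11.5 in Python 3.11.15 (2000 variable genes without the transporter genes, 30 components, 15 neighbours, Leiden resolution 1), and clusters were named by fixed markers, so class membership is rebuilt here. UMIs were summed per class and library. Intervals for levels are exact Poisson and those for ratios exact conditional binomial (scipy 1.17.1), and both cover counting error only. A gene was measured at 10 CPM or more in the library where it was higher, and called at 1.5-fold. Classes with at least 100 cells in each library were compared.

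Values are given for genes with at least 50 CPM in a compared class, for others highest outside the proximal tubule with at least 20 UMIs there, and for genes past 1.5-fold. The genes, lists and rules were chosen with earlier results of these data known. The counting steps were tested on simulated data. Alternatives varied the cell filters, doublets, clustering, scaling, free RNA, count minimum, fold and proximal cells summed. Gene positions are from GENCODE M21 (mm10), and promoters from RefSeq (GRCm38.p6). Some genes counted in these lists are not reported here by name.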

Additional observations from a re-analysis of the deposited data

Results flagged for a closer look

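For 3 genes the difference between 2 libraries ran one way in one cell class and the other way in another, each past 1.5-fold. None of these differences between classes was tested, and each rests on 1 library per group. For db/db control over db/m, the log2 ratio of Slc6a17, a vesicle carrier known from neurons, was -0.712 in thick ascending limb-like cells and -1.32 in connecting tubule and principal-like cells, but 1.23 in distal convoluted tubule-like cells, where db/m had 6 UMIs. For db/db fructose over db/db control, Slc36a4, a proton-linked carrier, had 0.657 in thick ascending limb-like cells (29 against 58 UMIs) and -1.13 in pericyte, mesangial and smooth muscle-like cells (15 against 21 UMIs). In the same comparison Slc38a7, a lysosomal glutamine carrier, had -1.03 in distal convoluted tubule-like cells (50 against 15 UMIs) and 0.671 in mononuclear phagocyte-like cells (9 against 14 UMIs). Counting intervals did not exclude equal levels for Slc6a17 in distal convoluted tubule-like, Slc36a4 in thick ascending limb-like and Slc38a7 in mononuclear phagocyte-like cells. Of 8 other settings, Slc38a7 stayed past 1.5-fold in 5 for mononuclear phagocyte-like and 6 for distal convoluted tubule-like cells. Slc36a4 in thick ascending limb-like cells did so in 7, and the remaining ratios named here in all 8.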

How the results depend on the processing

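Of 39 log2 ratios past 1.5-fold with at least 20 UMIs in both libraries together, 15 stayed past it under every alternative run. Among them were those of Slc38a3, Slc1a4, Slc6a15 and Slc43a2 in proximal tubule-like cells. Ratios past 1.5-fold on fewer UMIs were not followed and are not among the 39. Of 838 values of single genes under an alternative, 705 stayed within their counting interval, 129 moved outside it and 4 reversed. The reversed log2 ratios were 0.26 for Slc6a17 in distal convoluted tubule-like cells, -0.72 for Slc7a11 in mononuclear phagocyte-like cells and -0.95 for Slc7a1 in pericyte, mesangial and smooth muscle-like cells, all for fructose over control with each library clustered on its own, and -0.11 for Slc7a8 in early-placed proximal cells, control over db/m. The cause was not tested. In proximal tubule-like cells the 5 genes higher in db/db control became 10 at a minimum of 1 CPM, 3 at 50 CPM, 1 at 2-fold and 3 in cells rich in early markers, and the 2 lower became 5 at 1 CPM and 1 at 50 CPM. The 3 higher with fructose became 5 at resolution 2, 0 with size factors, 5 with free RNA subtracted, 9 at 1 CPM and 0 at 2-fold, and the 0 lower became 1 with size factors, free RNA subtracted, 1 CPM or cells poor in early markers. Counts over the 7 other classes take a gene once in each class, and shares over all genes were not taken under the alternatives. There the 15 higher in db/db control became 45 with free RNA subtracted, 24 at 1 CPM, 2 at 50 CPM and 6 with at least 20 UMIs. The 11 lower became 26, 29, 3 and 5, and 4 at 2-fold. The 13 higher with fructose became 6 with size factors, 37 with free RNA subtracted, 27 at 1 CPM, 3 at 50 CPM and 4 at 2-fold. The 10 lower became 19 with each library clustered on its own, 35 with free RNA subtracted, 22 at 1 CPM, 2 at 50 CPM, 6 at 2-fold and 5 with at least 20 UMIs. The alternatives of early-placed, rich and poor proximal cells and of 20 UMIs were chosen after seeing the data. No paired analysis was possible because each group has 1 library, and for the same reason no replicate could be left out. Classes with few cells limit the depth, and a gene under 10 CPM there was not measurable.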
